A study of Mus musculus with 79 samples.

Results

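The genes described here encode the constitutive subunits of the proteasome and its activators. They were the array rows whose gene symbol joins Psma, Psmb, Psmc, Psmd or Psme to a number, without Psmb8, Psmb9 and Psmb10, and a gene with several probesets was represented by the one with the highest mean. The rule found 40 of the 22335 genes named on the array. By subcomplex they were 8 alpha ring, 8 beta ring, 6 ATPase ring, 3 base, 8 lid, 3 base chaperone and 4 activator genes. The 31 genes called the 26S core below are those of the first 5 subcomplexes without Psma8 and Psmb11, which are known as the testis and thymus forms.

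Expression was measured in quadriceps of male mice of the BXD family, inbred strains bred from C57BL/6J and DBA/2J, and in both parents. The chow diet (CD) was Harlan 2018, and the high fat diet (HFD) was Harlan 06414, fed from 8 weeks of age. All animals were sacrificed at 29 weeks after an overnight fast, so fasting is shared by both groups. Each of the 79 arrays, 42 on CD and 37 on HFD, pooled RNA evenly from about 5 mice sharing strain and diet. The array is therefore the unit of replication, and the spread among animals of a strain was not measured. Of the 42 strains, 37 had an array on each diet and 5 a CD array alone.

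The proteasome degrades proteins that carry ubiquitin chains. Its barrel is built of outer alpha rings, which gate the entrance, and inner beta rings, which hold the proteolytic sites. A cap of ATPases, base and lid subunits binds, deubiquitinates and unfolds the substrate, and other activators can take the place of that cap. In skeletal muscle the proteasome takes much of its substrate from ubiquitin ligases that are induced by fasting and disuse.

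Values are in array units, a log-type score that gives each array the same mean, 8.0, and the same SD, 2.0. The log base was not stated, so a fold is nominal and assumes base 2. Probes respond unequally, and the level of one gene is not set against that of another. The 6 skeletal muscle markers averaged between 14.53 and 14.85 units on every array. Ddx3y, of the Y chromosome, lay between 10.15 and 11.15, and Xist, which females transcribe, between 5.46 and 6.45. The labels gave 2 batches by the times of RNA extraction and array run. No probeset had a batch term with an unadjusted p below 0.05 in limma, and the smallest p was 0.266. Among 35556 probesets some would pass 0.05 even without any batch effect, so this does not show that the batches agreed. Whether batch was adjusted for before deposit is not given in the sources used here. Strain BXD63 stood apart. Over 1154 olfactory receptor probesets its HFD minus CD difference correlated with the mean of the others at -0.537, against 0.421 to 0.649 for the other 36 paired strains. Results are therefore also given without BXD63.

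The 40 genes had 55 probesets, and 8 genes had several. Probesets of the array are numbered largely by genome order, so the 10 nearest numbers of a probeset mostly belong to its own chromosome. For Psma1, Psma3, Psma5, Psmb3 and Psmb5 the brightest probeset was not the one with most neighbours from the chromosome of the gene. The latter is called the own-chromosome probeset below, and its values are given where a result turns on one of these genes. Where the probes of these 5 probesets bind is not given in the files used here.

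Promoters are shown for 5 genes on which the covariation results turn. They are Psmd12, which tracked the rest of the core most closely, Psma2, of the pair with the highest r on HFD, the catalytic subunits Psmb5 and Psmb6, which did not track the core, and Psme1, which ran opposite to it. Each sequence covers 250 bases before to 50 bases after the RefSeq start of the gene, written 5′ to 3′ on the gene's strand. Capitals mark matches, on either strand, to the antioxidant response element core TGACNNNGC, which Nfe2l1 and Nfe2l2 are known to bind, or to CCAAT, the box that NF-Y binds.

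Psmd12 (GRCm38.p6, chr11:107479278-107479577, plus strand): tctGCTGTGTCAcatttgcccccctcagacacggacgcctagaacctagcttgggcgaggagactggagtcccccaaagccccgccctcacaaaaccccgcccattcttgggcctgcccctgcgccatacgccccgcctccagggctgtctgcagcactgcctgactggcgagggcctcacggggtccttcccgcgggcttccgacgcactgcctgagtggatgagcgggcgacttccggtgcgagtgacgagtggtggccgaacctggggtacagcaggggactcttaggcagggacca
Psma2 (GRCm38.p6, chr13:14612992-14613291, plus strand): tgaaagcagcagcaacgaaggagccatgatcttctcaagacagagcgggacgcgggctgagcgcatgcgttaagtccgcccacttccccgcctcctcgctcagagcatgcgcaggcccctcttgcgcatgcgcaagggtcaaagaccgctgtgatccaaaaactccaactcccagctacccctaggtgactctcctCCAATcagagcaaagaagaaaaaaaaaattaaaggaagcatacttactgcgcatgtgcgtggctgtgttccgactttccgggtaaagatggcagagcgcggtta
Psmb5 (GRCm38.p6, chr14:54617946-54618245, minus strand): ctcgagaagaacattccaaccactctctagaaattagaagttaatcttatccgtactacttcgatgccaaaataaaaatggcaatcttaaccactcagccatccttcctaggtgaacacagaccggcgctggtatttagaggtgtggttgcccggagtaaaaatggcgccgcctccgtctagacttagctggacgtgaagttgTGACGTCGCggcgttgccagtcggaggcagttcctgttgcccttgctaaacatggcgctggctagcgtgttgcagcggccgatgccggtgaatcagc
Psmb6 (GRCm38.p6, chr11:70525107-70525406, plus strand): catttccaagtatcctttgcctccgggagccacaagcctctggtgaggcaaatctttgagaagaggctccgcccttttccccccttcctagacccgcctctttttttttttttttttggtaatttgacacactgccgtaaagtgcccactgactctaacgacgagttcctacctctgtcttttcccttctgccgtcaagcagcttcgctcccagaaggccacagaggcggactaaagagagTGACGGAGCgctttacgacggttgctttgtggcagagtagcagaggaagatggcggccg
Psme1 (GRCm38.p6, chr14:55578244-55578543, plus strand): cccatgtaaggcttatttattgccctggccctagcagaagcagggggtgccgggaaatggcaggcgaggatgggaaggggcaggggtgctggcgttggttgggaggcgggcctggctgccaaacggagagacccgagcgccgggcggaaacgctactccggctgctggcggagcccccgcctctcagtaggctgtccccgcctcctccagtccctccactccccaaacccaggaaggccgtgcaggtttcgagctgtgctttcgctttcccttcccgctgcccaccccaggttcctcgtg

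RefSeq promoters were at hand for 33 of the 40 genes. TGACNNNGC occurred in those of 6 genes (18.2%), which are Psmd9, Psme4, Psmb6, Psmd12, Psmc6 and Psmb5, against 14% of all genes with a promoter and 12.4% of the 32851 promoters. CCAAT occurred in 13 of the 33 genes (39.4%), against 41.1% of genes and 37.4% of promoters. The share of CCAAT was thus slightly below that of all genes. No promoter of a proteasome gene held both motifs, although a base could belong to a match of each. Counted from the start of the gene, the first base of the match lay at -247 in Psmd12, -47 in Psmb5 and -9 in Psmb6 for TGACNNNGC, and at -54 in Psma2 for CCAAT. None of the alpha ring promoters held TGACNNNGC, and that of Psme1 held neither motif. A match is a description of letters and not of a bound factor.

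The first comparison asked whether the diet shifted these genes. It moved few of them, and by little. On HFD the base chaperone Psmd10 (gankyrin), the ATPase Psmc6, the nuclear activator Psme3 (PA28 gamma) and the lid subunit Psmd7 were higher, and the catalytic beta subunit Psmb7 and the lid subunit Psmd13 were lower. That is 6 of 40 genes (limma, Benjamini-Hochberg over all probesets), or 4 higher and 2 lower. Over all 35556 probesets 38.1% were called, 18.9% higher and 19.3% lower, and among the 7825 probesets with a mean in the range of the 26S core 26.6% were called. The share of proteasome genes called was thus below both of these. No gene's difference exceeded 0.119 units, and 31.37% of all probesets had a larger one, or 14.45% of those in the range of the core. In pooled tissue, fewer cells of a type and less RNA per cell cannot be told apart.

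Psmd10 ranged from 8.85 to 9.43 on CD with a median of 9.10, and from 8.69 to 9.55 on HFD with a median of 9.22. The diets overlapped widely, and Psmd10 was higher on HFD in 28 of 37 strains. The difference was 0.119 units (SE 0.0355, limma adjusted p = 0.0052), a nominal fold of 1.09. Psmc6 ranged from 10.81 to 11.51 on CD (median 11.14) and from 10.93 to 11.68 on HFD (median 11.24). The mean difference was 0.102 units (SE 0.0339, limma adjusted p = 0.0126), and 26 of 37 strains shared its direction. Psmc6 was the only ATPase gene called. The other 5 had estimates below 0, none of which passed, and a further probeset of Psmc1 stood at 0.040 (limma adjusted p = 0.323). Psme3 lay between 10.62 and 11.05 on CD and between 10.60 and 11.06 on HFD, with medians of 10.77 and 10.85. Its spread was narrow, an SD of 0.09 in either diet, and the difference of 0.081 units (SE 0.0214) had the smallest adjusted p of the 40, 0.00157 in limma. Psmd7, a partner of the deubiquitinase Psmd14 in the lid, was higher by 0.074 units (limma adjusted p = 0.0454) and in 24 of 37 strains.

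Psmb7, which carries the trypsin-like site, ranged from 11.22 to 11.87 on CD (median 11.56) and from 11.23 to 11.98 on HFD (median 11.50). It fell by 0.081 units with an SE of 0.0328 (limma adjusted p = 0.0429), and in 13 of 37 strains it was the higher on HFD. The probesets that represent the other catalytic subunits did not pass the test. The difference of Psmb5, of the chymotrypsin-like site, was -0.004 units with a 95% interval of -0.074 to 0.066, and 0.025 on its own-chromosome probeset (limma adjusted p = 0.417). Of the other 3 Psmb5 probesets, 2 were lower on HFD, at -0.071 and -0.207 units (limma adjusted p = 0.0296 and 0.000492), so the result for Psmb5 depends on the probeset. That of Psmb6, of the caspase-like site, was -0.047 with an interval of -0.135 to 0.041. Psmd13 ranged from 10.42 to 11.06 on CD and from 10.35 to 10.85 on HFD, with medians of 10.73 and 10.68. It fell by 0.065 units with an SE of 0.0246 (limma adjusted p = 0.0285), and 10 of 37 strains had the opposite sign.

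**Figure D1:**
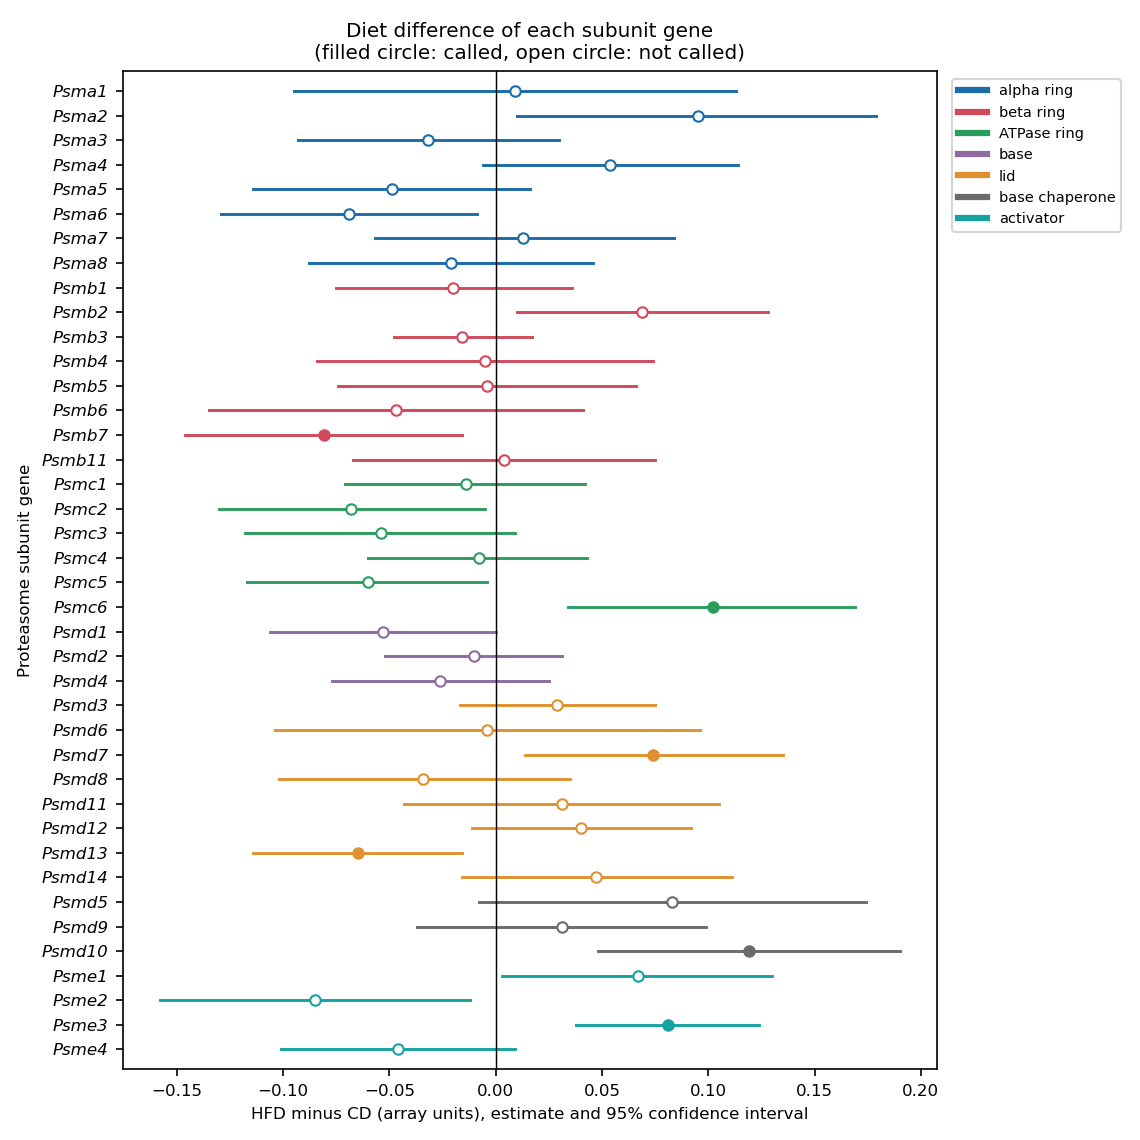
HFD minus CD difference of each of the 40 genes in array units, with limma's 95% confidence interval, coloured by subcomplex, over 42 CD and 37 HFD arrays. Filled circles mark the 6 genes called; all estimates lie between -0.085 and 0.119 units.

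By subcomplex, no gene of the alpha ring passed (0 of 8 by limma, with 2 at an unadjusted p below 0.05). These 2 were Psma2, with a difference of 0.095 units, and Psma6, with -0.069. Their neighbours Psma1, Psma3, Psma4, Psma5, Psma7 and Psma8 lay between -0.049 and 0.054. For Psma5 the own-chromosome probeset turned the sign, from -0.049 to 0.076 units (limma adjusted p = 0.0941), and for Psma1 it gave 0.055 against 0.009. The dimmest probeset of Psma1, at 0.198 units, and that of Psma3, at -0.264, passed (limma adjusted p = 0.00932 and 1.4e-07). In the beta ring 1 of 8 passed, and Psmb1, Psmb2, Psmb3, Psmb4 and Psmb11 lay between -0.020 and 0.069. In the ATPase ring, which unfolds the substrate, 1 of 6 passed, and Psmc1, Psmc2, Psmc3, Psmc4 and Psmc5 lay between -0.068 and -0.008. None of the 3 base genes passed in limma, and 1 had an unadjusted p below 0.05. These are the scaffold subunits Psmd1 and Psmd2 and the ubiquitin receptor Psmd4, at -0.053, -0.010 and -0.026 units. In the lid 2 of 8 passed, 1 in each direction, and Psmd3, Psmd6, Psmd8, Psmd11, Psmd12 and Psmd14 lay between -0.034 and 0.047. Of the base chaperones, which bind ATPases during assembly, 1 of 3 passed, and Psmd5 and Psmd9 stood at 0.083 and 0.031. Of the activators 1 of 4 passed. The partners Psme1 and Psme2 (PA28 alpha and beta), which join in one ring, had estimates of opposite sign, 0.067 and -0.085 units, and neither passed (limma adjusted p = 0.0888 and 0.057). A dimmer probeset of Psme2, with no neighbours from its chromosome, had the opposite sign and passed, at 0.152 units (limma adjusted p = 0.00133). Psme4 (PA200) stood at -0.046. The median over all 40 genes was -0.007 units, beside -0.0006633 for all probesets, and every 95% interval lay within -0.158 and 0.19.

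The split by direction depended on the scaling. After quantile normalization limma called 3 genes higher and 6 lower, and with each array centred on its median it called 7 higher and 0 lower, where the median over the 40 genes was 0.010. Psmc6, Psmd10 and Psme3 were called in all 3 of these fits, and Psmb7 and Psmd13 were lost on centring (limma adjusted p = 0.118 and 0.151). The count also depended on the fit. When strain entered as a replicate block, over the 37 strains with both diets, it was 10 of 40, beside 40.6% of probesets. The additions were Psmc2 at -0.072 units, Psmd14 at 0.051, Psme2 at -0.080 and Psme4 at -0.050, with limma adjusted p of 0.0438, 0.0491, 0.0275 and 0.0215. Within single batches fewer genes were called. Within batch 1 limma called 0 of 40 (0 at an unadjusted p below 0.05) and 12.6% of probesets. Within batch 2 it called Psmd10 and Psme3 and 24.4% of probesets. All 6 genes kept their sign within each batch, with differences of 0.130 and 0.110 for Psmd10 and of 0.074 and 0.087 for Psme3 in batches 1 and 2. Without BXD63 the 6 calls stayed, and Psmd5 at 0.089 units (limma adjusted p = 0.027) and Psme2 at -0.090 (0.0472) joined them. Some markers of other cells were also called between diets. Of the adipocyte markers 5 of 9 were higher and 1 lower on HFD, and their mean ran from 8.84 to 10.70 on CD and from 8.95 to 10.59 on HFD. Of the macrophage markers 5 of 8 were higher, with means from 8.13 to 8.82 on CD and from 8.23 to 9.13 on HFD. Of the endothelium markers 3 of 7 were higher, with means from 9.90 to 10.59 on CD and from 10.17 to 10.62 on HFD. Of the fibroblast, red blood cell and skeletal muscle markers 1 of 6 each was higher. Of the fast fibre markers 1 of 10 was lower, and of the slow fibre markers 0 of 7 were called. Beside these counts, 38.1% of all probesets were called, to which the endothelium share was close. The part of these markers in the differences was not tested.

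The next comparison asked whether the subunits vary together across strains. Median correlations were positive within and between the alpha ring, ATPase ring, base and lid in both diets, while those of the beta ring, the base chaperones and the activators lay closer to 0. Pearson's r was taken over the arrays of a diet after the batch means were removed. On CD 64 of the 780 pairs of proteasome genes (8.21%) had an r of at least 0.5. This compares with 1.21% of all 249414945 pairs of named genes, and with 2.21% of pairs whose means lie in the range of the 26S core. On HFD it was 109 pairs (14%), against 3.15% of all pairs and 3.70% of pairs in that range. Nearly all of these pairs were of core genes, 62 of 465 (13.3%) on CD and 105 of 465 (22.6%) on HFD. The median r of core pairs was 0.248 on CD and 0.322 on HFD, beside 0.038 and 0.046 for pairs in the same range. With permutation p-values adjusted over all pairs of named genes, 64 positive and 5 negative proteasome pairs were called on CD, where 1.72% of all pairs were called. On HFD these were 133 and 18, where 6.88% of all pairs were called. Whether covariation differed between the diets was not tested.

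**Figure D2:**
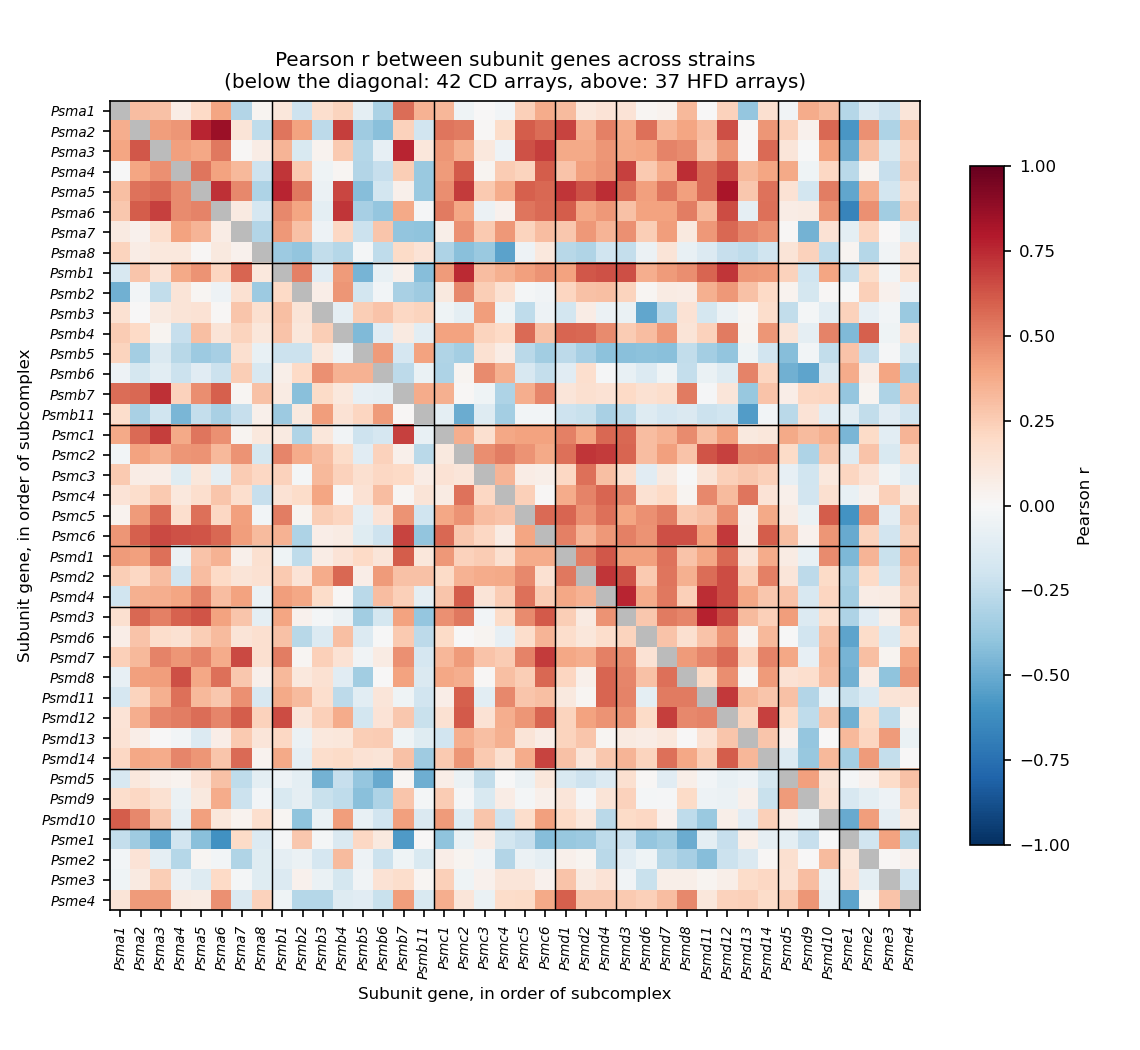
Pearson r of each pair of the 40 genes, over 42 CD arrays below the diagonal and 37 HFD arrays above it, with black lines between subcomplexes. Red blocks join the alpha ring, ATPase ring, base and lid, and the Psme1 and Psmb5 rows are mostly blue.

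The subcomplexes differed in how closely their own genes covaried. Within the base the median r was 0.38 on CD and 0.62 on HFD over 3 pairs. Within the lid it was 0.33 and 0.32 over 28 pairs, within the ATPase ring 0.27 and 0.38 over 15 pairs, and within the alpha ring 0.32 and 0.30 over 28 pairs. It was lower within the beta ring, with 0.12 and -0.05 over 28 pairs, the activators, with 0.06 and -0.09 over 6 pairs, and the base chaperones, with 0.07 and 0.15 over 3 pairs. The alpha and beta ring pairs include those with Psma8 and Psmb11, whose values lie near the low end. Medians between subcomplexes reached a size similar to those within the base, lid, ATPase ring and alpha ring. The median r was 0.30 and 0.39 between the alpha ring and the lid, and 0.31 and 0.50 between the ATPase ring and the base. Between the alpha and beta rings, which stack on each other in the barrel, it was only 0.07 and 0.01. The activators had a median r of -0.04 and -0.07 with the alpha ring on which they dock.

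The closest pair on HFD was Psma2 with Psma6, neighbours in the alpha ring. Psma2 ranged from 9.23 to 9.81 on CD (median 9.54) and from 9.18 to 10.18 on HFD (median 9.61). Psma6 ranged from 11.30 to 11.73 on CD (median 11.47) and from 10.97 to 11.72 on HFD (median 11.38). The SD was larger on HFD for both, 0.23 against 0.14 for Psma2 and 0.16 against 0.11 for Psma6, which was not tested. Their r was 0.854 on HFD (n = 37, rho = 0.843, permutation p = 1e-05 for each, the smallest the draws can give). The adjusted p over all gene pairs was 5.49e-06. It comes from a null pooled over all gene pairs and not from the draws of the single pair, and so can lie below their smallest p. The r was 0.869 in batch 1, 0.842 in batch 2 and 0.814 without the 2 farthest arrays. On CD the same pair had r = 0.608 (n = 42, rho = 0.596, permutation p = 3e-05 and 7e-05, adjusted p = 0.00872 over all gene pairs).

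On CD the highest r was that of Psma3 with Psmb7, which lie in different rings. It was 0.728 on CD (rho = 0.69, permutation p = 1e-05 for each, adjusted p = 0.000435 over all gene pairs) and 0.764 on HFD (rho = 0.753, permutation p = 1e-05 for each, adjusted p = 3.77e-05). The own-chromosome probeset of Psma3 gave 0.742 and 0.723. Next came Psmc6 with Psmd7, both called higher on HFD, at 0.70 on CD and 0.648 on HFD. Psma5 with Psmd12 reached 0.816 on HFD and 0.56 on CD. This pair depends on the probeset, since the own-chromosome probeset of Psma5 gave 0.547 and 0.389. In all, 39 pairs had an r of at least 0.5 in both diets, which is 60.9% of the pairs that had it on CD and 35.8% of those that had it on HFD.

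The lowest r belonged to the activator Psme1. Psme1 ranged from 10.42 to 11.05 on CD (median 10.71) and from 10.53 to 11.09 on HFD (median 10.76). With Psma6 its r was -0.608 on CD (n = 42, rho = -0.622, permutation p = 3e-05 and 2e-05, adjusted p = 0.0086 over all gene pairs). On HFD it was -0.663 (n = 37, rho = -0.594, permutation p = 2e-05 and 0.0001, adjusted p = 0.0011). The inverse relation held in batches 1 and 2, at -0.648 and -0.605 on CD and -0.692 and -0.624 on HFD, and without the 2 farthest arrays, at -0.583 and -0.599. An r of -0.5 or lower was found in 5 proteasome pairs on CD (0.641%) and 11 on HFD (1.41%), where 0.528% and 1.73% of all gene pairs had one, so that such pairs were about as frequent as in the background. Psme1 was in 4 of these 5 and in 7 of these 11. Its r was below 0 with 25 of the 31 core genes on CD and with 26 of 31 on HFD. For Psme2, which joins it in one ring, r was below 0 with 23 of 31 core genes on CD and with 5 of 31 on HFD. Between Psme1 and Psme2 r was 0.113 on CD and -0.189 on HFD. The pair with the next lowest r on CD was Psmb7 with Psme1 (r = -0.565, permutation p = 0.00011, adjusted p = 0.0187), which did not pass on HFD (r = -0.387, permutation p = 0.0178, adjusted p = 0.127; 0.168 in batch 2). On HFD it was Psmc5 with Psme1 (r = -0.599, permutation p = 9e-05, adjusted p = 0.00504), which did not pass on CD (r = -0.23, permutation p = 0.144, adjusted p = 0.514). Psmb6 with Psmd5 had -0.504 on CD and -0.477 on HFD, but the latter was -0.152 without the 2 farthest arrays and -0.284 without BXD63.

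Each gene was also set against the mean of the other core genes, as a description over the same arrays. Psmd12, a lid subunit, had the highest r on CD (0.75) and on HFD (0.855). An r of at least 0.5 was found for 16 of the 31 core genes on CD and 20 on HFD. It held in both diets for Psma2, Psma3, Psma5, Psma6, Psmb1, Psmc2, Psmc5, Psmc6, Psmd3, Psmd4, Psmd7, Psmd8, Psmd12 and Psmd14. On HFD Psma4, Psmb4, Psmc1, Psmd1, Psmd2 and Psmd11 reached it as well. Psma7 and Psmb7 reached it on CD alone. Psmc3, Psmc4, Psmd6, Psmd13 and Psma1 stayed below it in both. Psma5 and Psma1 depended on the probeset, since the own-chromosome probeset gave 0.398 and 0.491 for Psma5, below 0.5 in both diets, and 0.298 and 0.532 for Psma1. The catalytic Psmb5 ran against the core, at -0.137 and -0.412. Its own-chromosome probeset moved these to -0.06 and -0.113, so the size of that opposition rests on the probeset. Psmb6 stood at 0.166 and -0.054, Psmb3 at 0.34 and -0.04 (0.133 and -0.038 on its own-chromosome probeset), and Psmb2 at -0.004 and 0.328. Outside the core, Psme1 stood at -0.401 and -0.488, Psmb11 at -0.183 and -0.261, Psme4 at 0.328 and 0.269, and Psmd10 at 0.185 and 0.455.

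**Figure D3:**
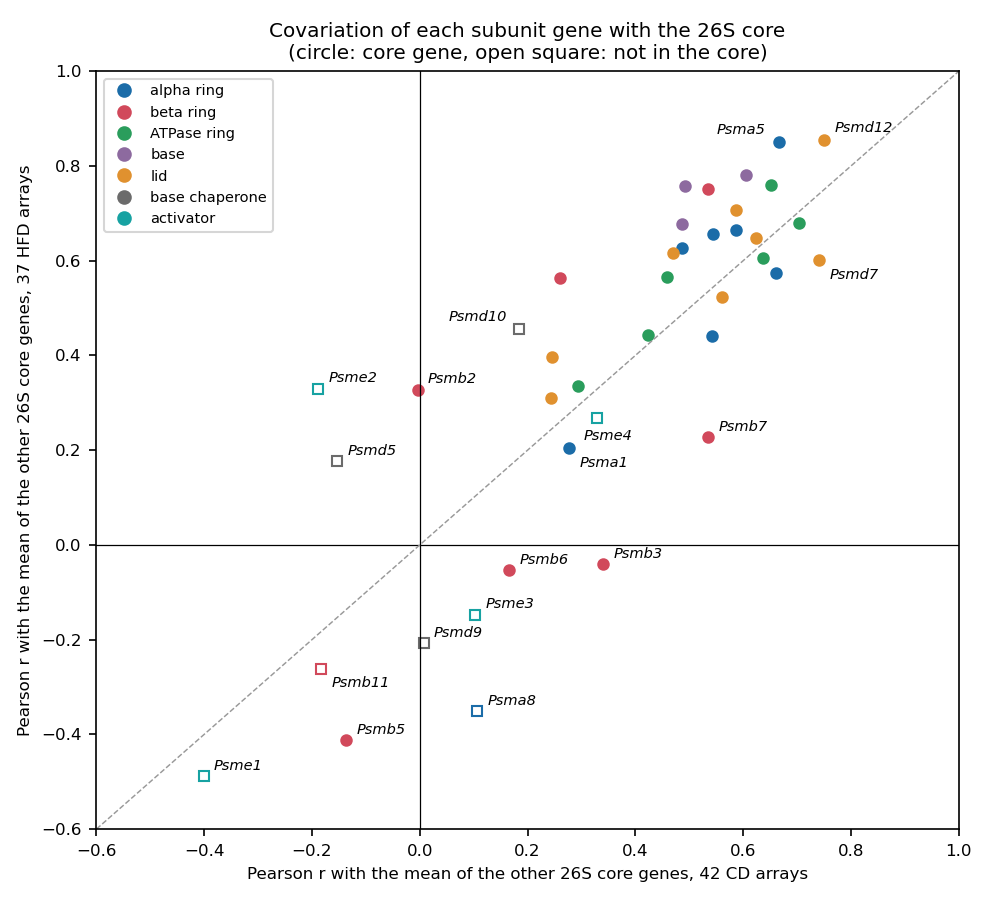
Pearson r of each gene with the mean of the other 26S core genes, on CD (horizontal, 42 arrays) and on HFD (vertical, 37 arrays), coloured by subcomplex. Psmd12 sits at the top right at 0.75 and 0.855 and Psme1 at the bottom left at -0.401 and -0.488.

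Other measures moved with the core mean. Its r with the median value of the array was -0.066 on CD and -0.588 on HFD. With the mean of the 6 skeletal muscle markers it was -0.094 and -0.596, with the 10 fast fibre markers -0.038 and -0.597, and with the 7 endothelium markers -0.607 and 0.082. Their part in the covariation was not tested. After quantile normalization the median r of core pairs was 0.258 on CD and 0.271 on HFD. Within batches 1 and 2 it was 0.292 and 0.236 on CD and 0.266 and 0.392 on HFD. The core mean of a strain on CD and on HFD had an r of 0.116 over 37 strains. BXD90 was lowest in both, at -1.20 and -0.85. BXD43 was highest on CD (1.48) and BXD44 on HFD (1.04), while BXD69 had rank 2 of 42 from the lowest on CD (-0.81) and rank 35 of 37 on HFD (0.94). The CD array of BXD69 was in batch 1 and its HFD array in batch 2. The core mean is in SD units of each gene, averaged over the 31 genes.

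Whether a strain kept its level of single genes from CD to HFD was tested over the 37 paired strains. It did so for 6 of the 40, by permutation tests of r adjusted over all probesets. Of all probesets 10.5% were called, and of those in the range of the core 26%, so that the share of proteasome genes lay between these. The genes were Psmb3, the activator Psme4, the lid subunits Psmd6 and Psmd14, the base chaperone Psmd9 and the ATPase Psmc3. The median r over the 40 genes was 0.278, beside 0.3178 for probesets in that range. For Psmb3 r was 0.782 (rho = 0.756, permutation p = 1e-05 for each, adjusted p = 0.00043 and 0.000515), with values between 13.02 and 13.30 on CD and between 13.01 and 13.30 on HFD. This is a narrow range, with an SD of 0.06 and 0.07. Within batch 1 r was 0.803 (12 strains), where the call was lost (adjusted p = 0.0571 by permutation), within batch 2 it was 0.812 (17 strains), and over the 8 strains in different batches it was 0.477. The own-chromosome probeset of Psmb3, however, gave r = 0.219 with an adjusted p of 0.477 by permutation. For Psmb5 r was 0.149 for the representative and 0.425 (adjusted p = 0.0731 by permutation) for the own-chromosome probeset. A further probeset of Psma3 gave 0.522 (adjusted p = 0.0128 by permutation), where the representative gave 0.394 (0.108). For Psma1 the reverse of Psmb3 was seen, with 0.223 for the representative and 0.648 (adjusted p = 0.00072 by permutation) for the own-chromosome probeset.

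Psme4, the nuclear activator that binds without ATP, had r = 0.684 (rho = 0.693, permutation p = 2e-05 for each, adjusted p = 0.00072). It ranged from 12.32 to 12.84 on CD and from 12.32 to 12.89 on HFD. Its r was 0.822 in batch 1, 0.666 in batch 2, where the call was lost (adjusted p = 0.0645 by permutation), and 0.632 without the 2 farthest strains, but 0.183 over the 8 strains whose arrays lie in different batches. Psmd9, which binds the ATPases during assembly, had r = 0.595 (rho = 0.561, permutation p = 0.00011 and 0.00034, adjusted p = 0.00269). BXD63 was its lowest strain in both diets, and without it r was 0.525 (adjusted p = 0.0152 by permutation). Its r was 0.722 in batch 1 and 0.405 in batch 2, and the call was lost in both (adjusted p = 0.126 and 0.494 by permutation). Psmd14, the deubiquitinase of the lid, had r = 0.585 (rho = 0.584, permutation p = 0.00016 and 0.00015, adjusted p = 0.00363) and 0.473 without the 2 farthest strains. Its call was also lost within both batches, where r was 0.761 and 0.501 (adjusted p = 0.0887 and 0.313 by permutation).

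Psmd6, a lid subunit, had a wide spread over strains. Psmd6 ranged from 10.60 to 11.57 on CD (median 11.26) and from 10.68 to 11.58 on HFD (median 11.26). Its r was 0.661 (rho = 0.514, permutation p = 5e-05 and 0.00109, adjusted p = 0.00149). It was lowest in BXD44 on CD and in BXD48 on HFD, and without the 2 farthest strains r was 0.615. Psmc3 had r = 0.575 (rho = 0.493, permutation p = 0.00038 and 0.00223, adjusted p = 0.00709), with BXD49 lowest in both diets. Without the 2 farthest strains it was 0.382 (permutation p = 0.0234). Over the 8 strains whose arrays lie in different batches, r was -0.292 for Psmd6 and -0.315 for Psmc3, against 0.85 and 0.637 in batch 1 and 0.779 and 0.823 in batch 2. The call of Psmc3 was lost within batch 1 (adjusted p = 0.211 by permutation). At the other end Psmb11 had r = -0.175 (rho = -0.215, permutation p = 0.298 and 0.201, adjusted p = 0.598).

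**Figure D4:**
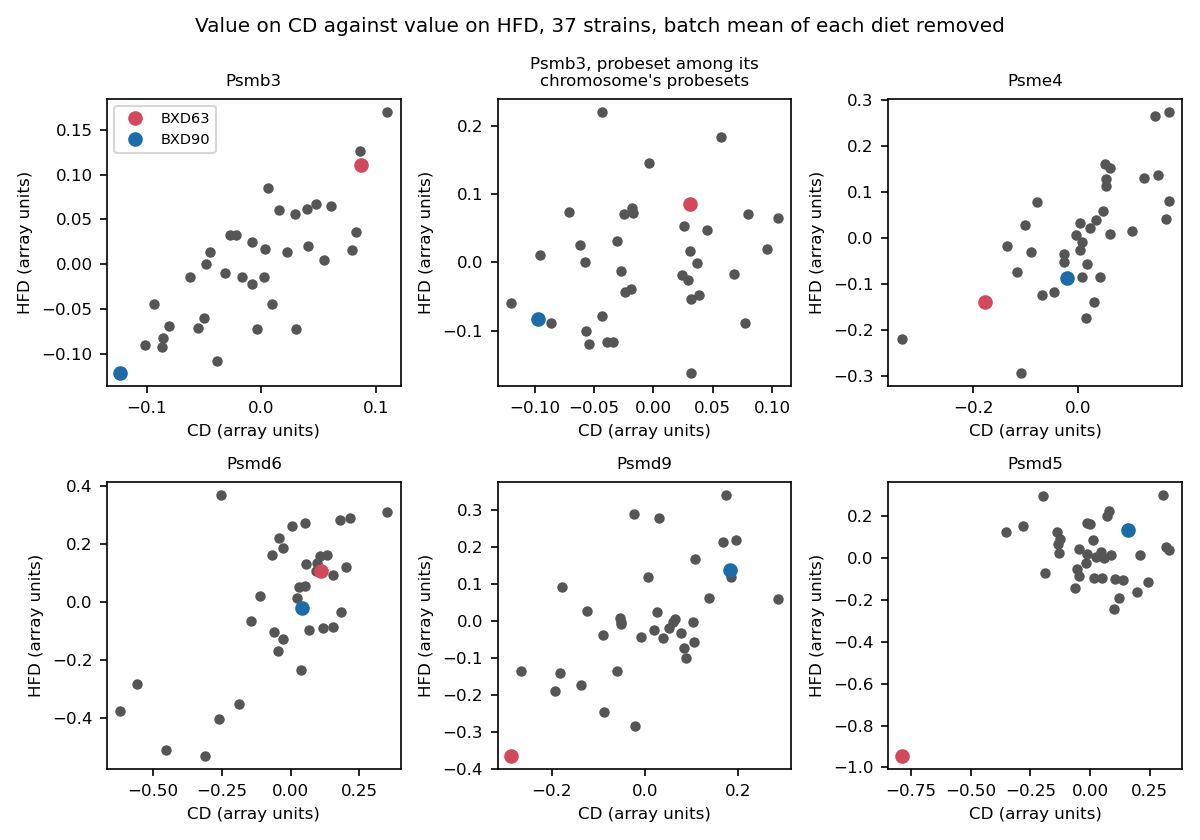
Value on CD (horizontal) against value on HFD (vertical) in array units for 37 strains, 1 point each, with the batch mean of each diet removed, for 5 genes and for the own-chromosome probeset of Psmb3. The points of Psmb3 rise together (r = 0.782) and those of its other probeset scatter (r = 0.219), while BXD63 lies alone at the low end of Psmd5.

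The range over strains, highest minus lowest array, described how far strains differed within a diet. Its median over the 40 genes was 0.61 units on CD and 0.61 on HFD. Over probesets in the range of the core it was 0.644 and 0.674, and over all probesets 0.718 and 0.764. On CD Psma1 had the widest range, 1.26 units, from 11.99 in BXD90 to 13.25 in BXD69, with the next highest array at 12.91. The own-chromosome probeset of Psma1 had a range of 1.08 on CD, just under the 1.11 of Psmd5. On HFD it was Psmd5, at 1.25 units, a base chaperone that ranged from 8.73 to 9.98 with a median of 9.70. BXD63 decided this value. It was lowest in both diets, at 8.81 on CD and 8.73 on HFD, where the next lowest arrays were 9.24 and 9.44. Without BXD63 the range of Psmd5 was 0.68 on CD and 0.54 on HFD. Between diets its r was 0.409 over 37 strains and -0.191 without BXD63. Psmd7 was highest in BXD43 in both diets, at 11.84 and 11.85, where the next highest arrays were 11.57 on CD and 11.83 on HFD. The widest HFD range apart from Psmd5 was that of Psma2, 1.0 units. The narrowest was that of Psmb3, 0.28 and 0.30 units, or 0.28 and 0.38 on its own-chromosome probeset. The range of Psmb5 was 0.69 and 0.71, but 0.37 and 0.36 on its own-chromosome probeset. On HFD this 0.36 lay below the 0.38 of the own-chromosome probeset of Psmb3 and above the 0.30 of the representative Psmb3 probeset. By subcomplex the median range ran from 0.47 (base) to 0.70 (lid) on CD, and to 0.67 (lid) without BXD63. On HFD it ran from 0.46 (base) to 0.86 (base chaperones), but without BXD63 the base chaperones fell to 0.62 and the alpha ring, at 0.68, was widest.

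**Figure D5:**
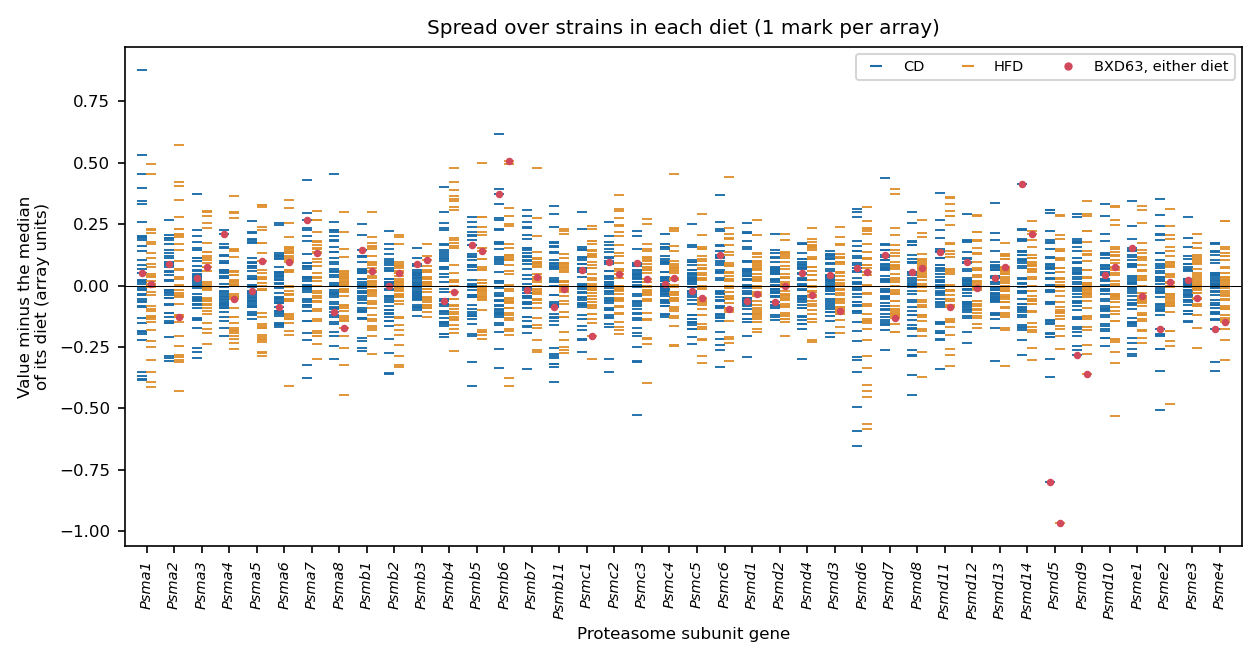
Value of each array minus the median of its diet, in array units, for the 40 genes in order of subcomplex, with CD and HFD side by side and BXD63 in red. BXD63, at 8.73 units on HFD, is the lowest mark of Psmd5, whose median is 9.70, and the highest CD mark of Psma1 is BXD69 at 13.25.

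The parents C57BL/6J and DBA/2J were compared over their 2 arrays each, with the spread borrowed from all paired strains. limma called 0 of the 40 genes, where 1.26% of all probesets were called, and 3 had an unadjusted p below 0.05. They were Psmd6, 0.37 units higher in C57BL/6J (95% interval 0.10 to 0.64, limma adjusted p = 0.243), Psmd9 at 0.30 (0.10 to 0.50, adjusted p = 0.178) and Psmb7 at 0.29 (0.06 to 0.52, adjusted p = 0.343).

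The other genes of the pathway, 30 of them on the array, moved in both directions. By limma 5 were higher, 6 lower and 19 did not pass, a share of calls close to the 38.1% of all probesets. Both muscle ubiquitin ligases fell on HFD, Trim63 (MuRF1) by 0.341 units (SE 0.104, adjusted p = 0.0063) and Fbxo32 (atrogin-1) by 0.174 (SE 0.0654, adjusted p = 0.0279). Both deubiquitinases that dock on the cap rose, Usp14 by 0.087 and Uchl5 by 0.093. Of 5 assembly factors Psmg3 fell by 0.336 (SE 0.0402, limma adjusted p = 1.1e-10), Psmg2 and Psmg4 rose by 0.091 and 0.164, and Pomp and Psmg1 did not pass. The mean of Psmg3, 7.52 units, lay below the lowest array median of 7.783, and no detection call was used. Of the immunoproteasome subunits Psmb10 rose by 0.102, and Psmb8 and Psmb9 stood at 0.060 and -0.017. Adrm1, a ubiquitin receptor of the cap, fell by 0.080, while Shfm1, a small subunit also named Sem1, stood at 0.066. Of the 7 shuttle and transfer factors Ddi2, a protease that cleaves Nfe2l1, fell by 0.222 (adjusted p = 0.000595), and Vcp, the segregase that hands over substrate, stood at -0.004. Rps27a, a ubiquitin fusion gene, fell by 0.111, while Ubb, a polyubiquitin gene, stood at 0.011 and Uba1, the activating enzyme, at -0.002. The chromosome of neighbouring probesets was compared for the 40 proteasome genes alone and not for these genes. Nfe2l1, Nfe2l2 and Ngly1, which act in the transcription of subunit genes, did not pass, nor did the inhibitor Psmf1.

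Across strains several of these genes tracked the 26S core. As a description over 42 CD and 37 HFD arrays, the r with the core mean was 0.597 and 0.827 for Usp14 and 0.77 and 0.597 for Vcp. It was 0.509 and 0.705 for Trim63 and 0.489 and 0.503 for Fbxo32, the ligases that fell on HFD. Nfe2l2 had 0.374 and 0.57, Nfe2l1 0.142 and -0.249, and Psmb8 -0.026 and 0.0. The sign was not kept on HFD for Adrm1, at 0.446 and -0.062, and for Ubb, at 0.454 and -0.183. The share of all genes with such an r is not given here. Among the 22286 named genes outside the Psm family, those with the highest value of the lower of both r were Tbc1d15 (0.758 and 0.799), Dnajb9 (0.746 and 0.729), Ranbp9 (0.704 and 0.812), Ikzf5, D230025D16Rik, Gnl3, Gadd45a, Sf3b1, Clcc1 and Gnl2. For the last 7 the lower r was between 0.658 and 0.689.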

How the data were processed

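Total RNA of quadriceps was hybridised to Affymetrix Mouse Gene 1.0 ST arrays. The deposited values are a score per probeset: the authors scaled each array to a mean of 8.0 and an SD of 2.0, the submitters' processing notes name Affymetrix Expression Console, and summarization, log base and batch correction are not given in the sources used here. The tests were planned for log2-type values and run on this score as deposited. Array medians lay between 7.783 and 7.922. The number of arrays limits the precision. The CD column headed BXD92 was matched to sample BXD92a.

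Groups came from the diet in the labels. limma 3.58.1 (R 4.3.3; lmFit, eBayes) fitted diet and array batch on all 35556 probesets, with Benjamini-Hochberg adjustment and calls at an adjusted p below 0.05. Correlations used values with the batch mean of a diet removed and two-sided permutation tests of 100000 draws. The cross-diet test was adjusted over all probesets and pairs over all pairs of 22335 named genes, with a null pooled over 4 permuted draws. Strain pairs the arrays of both diets by the labels. Deviations of a strain's 2 arrays from their group means had a median r of 0.214 (-0.136 to 0.395), above 0.1 in 33 of 37 strains. Parents were compared in a limma fit with a term per strain. Scripts were tested on simulated data. Python 3.11.15 with numpy 2.4.6 and scipy 1.17.1 was used. Promoters came from RefSeq, GRCm38.p6.

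The genes and lists were chosen with earlier results of these data known. The named genes were those with the largest diet differences, the catalytic subunits, and the ends of the correlations and ranges. Alternatives were other batch, strain, scaling, filter and probeset choices and the methods' t-test. Values of 2 genes of the pathway list are not reported here.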

Additional observations from a re-analysis of the deposited data

How the results depend on the processing

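The count of 6 genes called between diets was 0 within batch 1, 2 within batch 2 and 10 with strain as a replicate block, a fit that lost none of the 6 calls. The methods' t-test called the same 6 after Benjamini-Hochberg adjustment and 14 without it, when 46.3% of all probesets passed. Under the other settings between 4 and 9 genes were called. The diet differences of the 6 genes kept their sign under all 12 alternatives, but Psmb7 and Psmd7 lost the call under 6 of them, Psmd13 under 4, Psmc6 under 2, and Psmd10 and Psme3 under batch 1 alone. Across diets 6 genes became 2 in the strains of batch 1 and 3 in those of batch 2. Adjusted over the 780 pairs, as planned, 161 pairs were called on CD and 249 on HFD. With that adjustment batches 1 and 2 gave 23 and 62 pairs on CD and 2 and 191 on HFD, and quantile normalization gave 165 on HFD. Adjusted over all gene pairs, a setting chosen after seeing the data and used in the report, these were 69 and 151. The median range was 0.31 on CD and 0.32 on HFD when taken from the 10th to the 90th percentile. The unadjusted t-test and the own-chromosome probesets, ranges included, were also chosen after seeing the data. The cause of these changes was not tested, and the fits within a batch also had fewer arrays. Values near the low end of an array, as for Psma8 and Psmb11, cannot be told from background here, since no detection call was used.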
